A study of Mus musculus with 2 samples.

Results

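The mitosis and cytokinesis genes are 44 named genes that carry a dividing cell from mitotic entry to the separation of its daughters. They were taken as the rows of the deposited expression table whose gene name equals a name on that list. All 44 had a row among the 12631 rows of the table, and none was lost to the filter on low levels. The rule used names and no measured value, but the names were chosen with earlier results of these data known. The genes were sorted into 7 roles, of which the spindle (8 genes) and the contractile ring with the central spindle (9 genes) are set side by side.

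The table compares small intestinal epithelium of 1 Myh9-/- mouse with that of 1 wild-type control mouse, both C57BL/6 and 8 weeks old. Both animals received tamoxifen each day for 5 days, which induced the deletion of Myh9 in the knockout, and RNA was taken at day 5 in both. Epithelial cells were detached from cut intestine with EDTA and dithiothreitol, so the RNA is from a bulk cell suspension. The sources used here name neither the driver of the recombinase nor the deleted part of the gene. Myh9 encodes the motor subunit of non-muscle myosin IIA, which pulls on actin filaments, among other places in the cytokinetic ring.

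Mitosis is driven by cyclin-dependent kinase 1 bound to cyclins A and B. Microtubules of the spindle capture chromosomes at kinetochores, and a checkpoint holds back anaphase until all are attached. After anaphase, microtubules bundled between the separating chromosomes mark the cell equator. There RhoA is activated and a ring of actin and myosin II closes the cell in. In the intestine these genes are used mainly in the crypts, whose transit-amplifying cells divide rapidly and supply the non-dividing villus.

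A level here is the deposited value minus the 1 that the authors had added. The sources used here do not name its unit, so levels of different genes are not ranked against each other. Each fold was taken after adding 1 to both levels, which understates differences of low genes. A gene was called higher or lower at 1.4-fold, the threshold in the labels (0.49 on the log2 scale). Each group is 1 mouse, so no difference below has an error or a test, each compares 2 libraries only, and depth is unknown. Myh9 itself was 13.6 in the knockout and 99.5 in the control, 6.89-fold lower.

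Messenger RNA of the mitosis and cytokinesis genes was close to equal in both mice. Of the 44 genes, 0 were called higher in the Myh9-/- mouse, 1 was called lower (Nusap1) and 43 lay between. Among all 11631 genes with a mean level of at least 1, 30.7% were called, 15.0% higher and 15.6% lower. Among the 8210 genes within the range of mean levels that the 44 cover (3.65 to 120.3), 29.0% were called. The 44 log2 folds ran from -0.60 to 0.48 with a median of -0.04, against a median of -0.003 over all genes. Of the 44, 20 were above the control and 24 below it. The median size of the difference regardless of sign was 0.16 on the log2 scale for the 44 genes and 0.30 for all genes. The share within 1.2-fold of equality was 65.9% (29 genes) for the 44 and 44.8% for all genes.

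**Figure D1:**
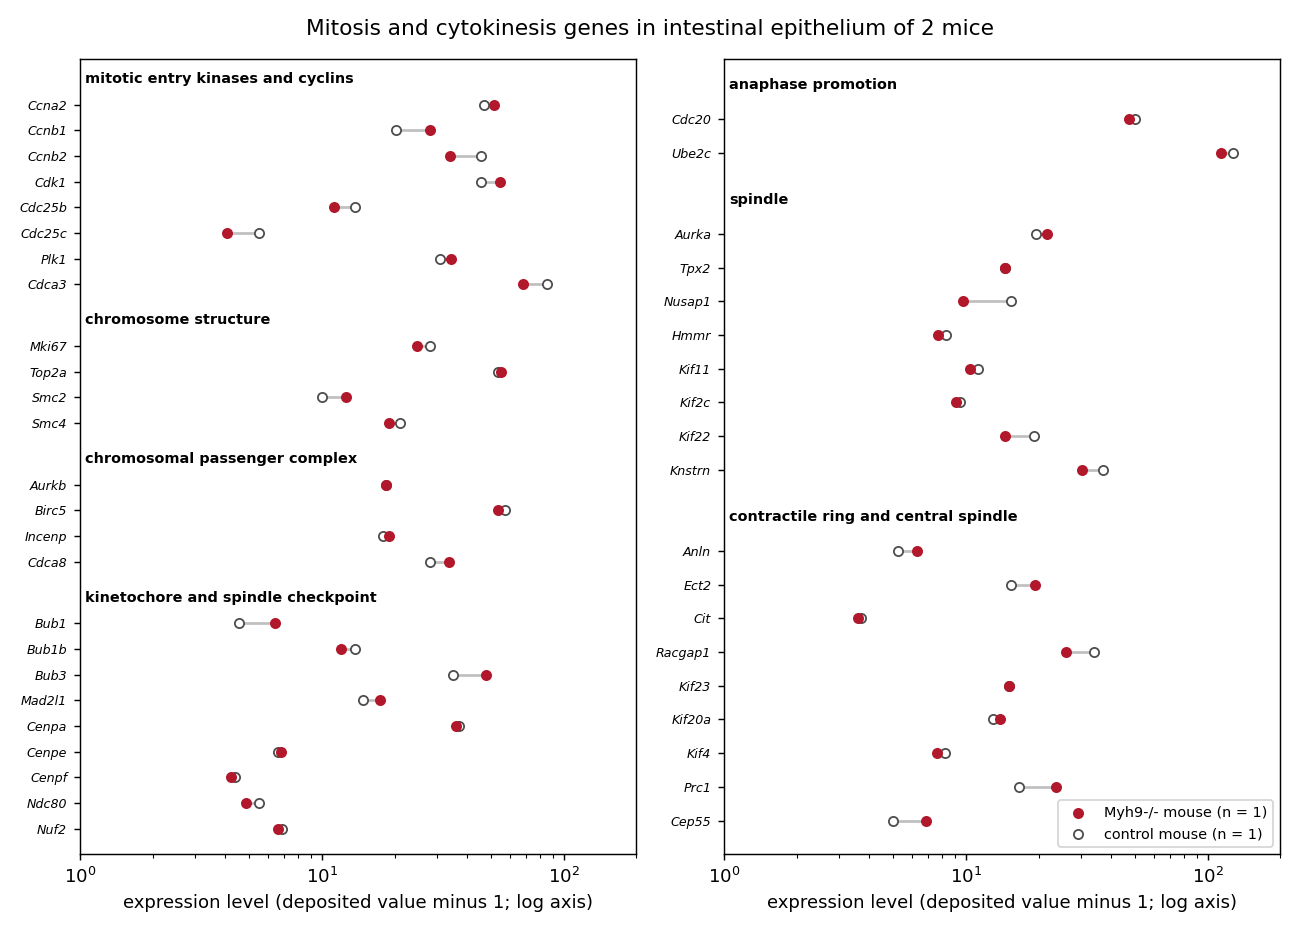
Level of each of the 44 genes in the Myh9-/- mouse (filled red) and in the control mouse (open grey), 1 mouse each, on a log axis in the deposited unit minus 1, grouped by role; grey bars join the 2 values of a gene. Most pairs of points nearly touch, and the widest gap is that of Nusap1, at 9.78 in the knockout and 15.3 in the control.

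**Figure D2:**
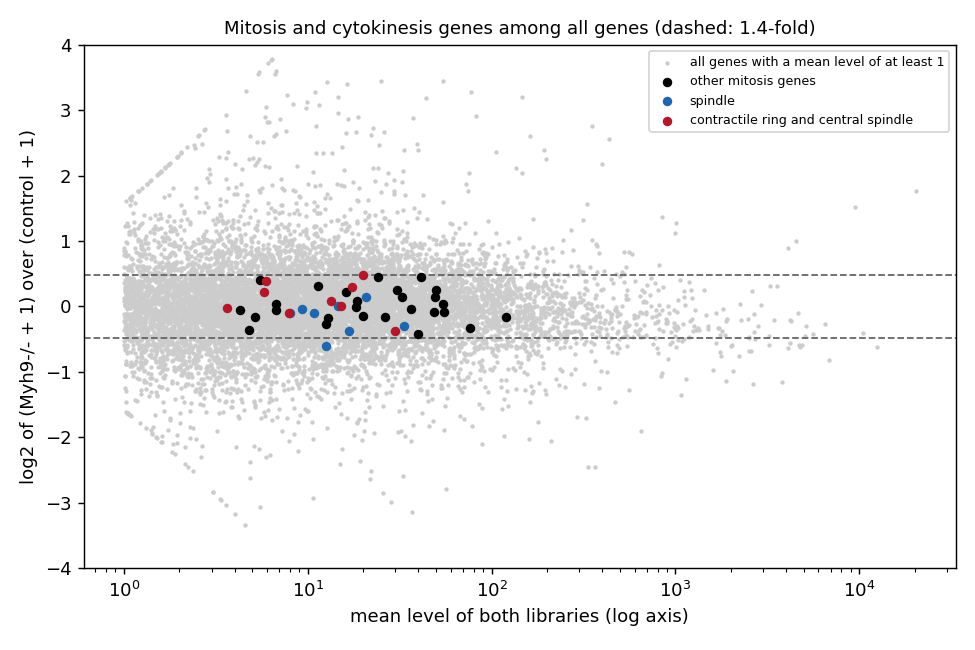
Log2 fold (Myh9-/- over control, each plus 1) against the mean level of both libraries on a log axis, for all genes with a mean level of at least 1 (grey) and for the 44 genes (coloured by role); dashed lines mark 1.4-fold. The coloured points lie in the middle of the grey cloud, from -0.60 to 0.48; 12 grey genes lie outside the plotted range.

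The genes of the contractile ring, where the lost myosin works, and of the central spindle had 0 of 9 called in either direction. Their median log2 fold was 0.08. Anln encodes anillin, the scaffold that ties actin, myosin and septins together in the ring (chromosome 9, 22332012 to 22389188 in mm10). It was 6.28 in the knockout and 5.24 in the control. Ect2 encodes the exchange factor that activates RhoA at the equator (chromosome 3, 27097222 to 27153878), and was 19.3 in the knockout and 15.4 in the control. Cit, for citron kinase, which holds the ring and the midbody together, was 3.60 in the knockout and 3.69 in the control. Anln and Ect2 were thus 1.17-fold and 1.23-fold higher, below the threshold, and Cit was equal within 1.02-fold. Racgap1 went the other way. It encodes the GTPase-activating subunit of centralspindlin (chromosome 15, 99620496 to 99651656) and was 25.9 in the knockout and 34.0 in the control, 1.30-fold lower. Its kinesin partner in centralspindlin, Kif23, was 15.2 in the knockout and 15.1 in the control.

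Of the genes that bundle and shorten the central spindle, Prc1 showed the largest upward difference among all 44. Prc1 crosslinks antiparallel microtubules (chromosome 7, 80294450 to 80316259), and was 23.5 in the knockout and 16.6 in the control, 1.39-fold higher and just under the threshold. In the annotation, Rccd1 on the opposite strand overlaps Prc1 over 21810 bases. Rccd1 was 2.80 in the knockout and 9.47 in the control, and since no source used here says whether counting used strand, the level of Prc1 is uncertain. Kif4, a chromosome-bound kinesin that works with Prc1, was 7.60 in the knockout and 8.18 in the control. It has an annotated pseudogene and overlaps Pdzd11 on the opposite strand over 832 bases. Pdzd11 was 32.6 in the knockout and 30.6 in the control, so the level of Kif4 is uncertain as well. Kif20a, which carries the chromosomal passenger complex to the midzone, was 13.8 in the knockout and 13.0 in the control, and overlaps Cdc23 on the opposite strand. Cep55, which recruits the abscission machinery to the midbody, was 6.87 in the knockout and 5.02 in the control, 1.31-fold higher. The 4 genes counted here as cortical (Anln, Ect2, Cit and Racgap1) had a median of 0.10 and the other 5 one of 0.08. This split parts the centralspindlin partners Racgap1 (log2 fold -0.38) and Kif23 (0.01). The closeness of the medians therefore does not compare the cortex with the central spindle.

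The spindle genes had 1 of 8 called, downward, and a median log2 fold of -0.10. Nusap1 binds microtubules near chromosomes and stabilises spindle fibres (chromosome 2, 119618298 to 119651244). It was 9.78 in the knockout and 15.3 in the control, 1.52-fold lower. At its start it overlaps, over 172 bases, Oip5 on the opposite strand, a centromere gene given here for that overlap, at 3.56 in the knockout and 4.57 in the control. Kif22, a chromosome-arm kinesin that pushes chromosomes to the equator, was 14.6 in the knockout and 19.2 in the control. Knstrn, a spindle and kinetochore adaptor, was 30.1 in the knockout and 37.1 in the control. Kif22 and Knstrn were lower by 1.29-fold and 1.22-fold, within the threshold. Both have an annotated antisense RNA (Gm31749 and Gm14091) and Kif22 an annotated pseudogene, so their levels are uncertain as well. Bub1b, Knstrn and Nusap1 lie near each other on chromosome 2, with gaps of 0.17 Mb and 0.76 Mb, and each was lower in the knockout. Other close members differed in direction. Kif20a and Cdc25c, the closest pair at 0.10 Mb, had log2 folds of 0.08 and -0.37. Kif11 and Cep55, at 0.63 Mb, had -0.10 and 0.39.

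The remaining spindle genes differed little. Tpx2, which nucleates microtubules and activates Aurora A, was equal in both mice at 14.6. Aurka, for Aurora A itself, was 21.7 in the knockout and 19.6 in the control. Kif11, the motor that pushes spindle poles apart, was 10.4 in the knockout and 11.2 in the control. Hmmr and Kif2c were within 1.1-fold, at 7.69 and 9.11 in the knockout and 8.31 and 9.43 in the control.

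Side by side, 6 of 9 ring and central spindle genes and 2 of 8 spindle genes were above their control level. The summed level of the ring and central spindle genes was 122 in the knockout and 116 in the control. Prc1 alone, whose level is uncertain, differed by more than these sums, at 23.5 in the knockout and 16.6 in the control. The summed level of the spindle genes was 118 in the knockout and 135 in the control. That gap lay mainly in Nusap1, Kif22 and Knstrn, of which Kif22 and Knstrn have uncertain levels. The ranges overlapped, from -0.38 to 0.48 for the ring and central spindle and from -0.60 to 0.14 for the spindle. With 1 mouse per group this difference between the roles has no error and was not tested. When Kif4, Kif20a, Kif23 and Prc1 were counted with the spindle, its median became -0.07.

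**Figure D3:**
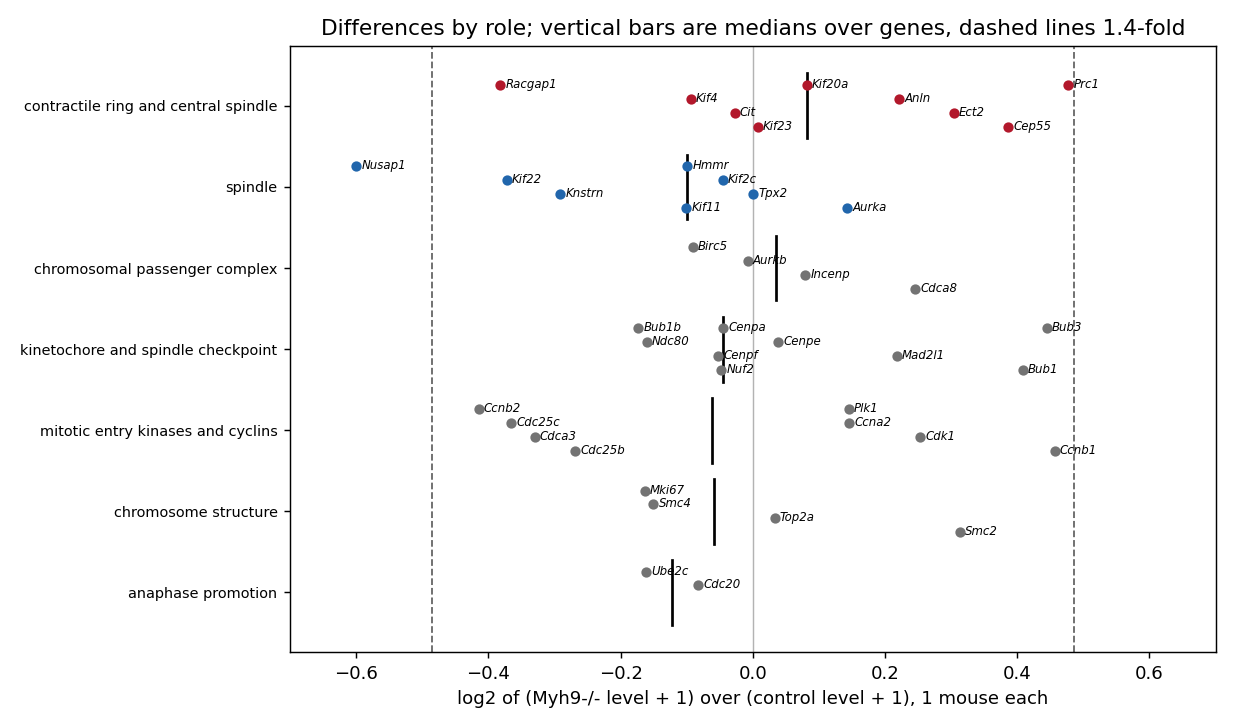
Log2 fold of each of the 44 genes by role, with ring and central spindle genes in red, spindle genes in blue and the others in grey; black bars are medians over genes and dashed lines mark 1.4-fold. Nusap1 alone lies past a dashed line, Prc1 lies just inside the other, and the medians of the 7 roles fall between -0.12 and 0.08.

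The kinases and cyclins of mitotic entry split evenly, with 4 of 8 above the control and 0 called. The B cyclins differed in direction. Ccnb1, the main mitotic cyclin (chromosome 13, 100778650 to 100786570), was 28.1 in the knockout and 20.2 in the control, 1.37-fold higher. Ccnb2, a B cyclin found at the Golgi, was 34.0 in the knockout and 45.6 in the control, 1.33-fold lower. Their partner Cdk1 was 54.5 in the knockout and 45.6 in the control. Annotated pseudogenes of Ccnb1 and Ccnb2 exist, so reads of these genes may have been split. Ccna2, the cyclin of S phase and early mitosis, was 51.8 in the knockout and 46.7 in the control. It overlaps Exosc9 on the opposite strand over 863 bases, at 29.7 in the knockout and 27.4 in the control. Plk1, the polo kinase, was 34.2 in the knockout and 30.8 in the control. The phosphatases that release Cdk1 from inhibition were slightly lower. Cdc25b was 11.3 in the knockout and 13.8 in the control, and Cdc25c was 4.07 in the knockout and 5.53 in the control. Cdca3, which in Xenopus helps degrade the inhibitory kinase Wee1, was 67.7 in the knockout and 85.3 in the control.

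The chromosomal passenger complex corrects faulty attachments and later directs cytokinesis. Its 4 subunits stayed within 1.2-fold. The kinase subunit Aurkb was 18.4 in the knockout and 18.5 in the control. The scaffold Incenp was 19.0 in the knockout and 17.9 in the control. Survivin, Birc5, was 53.6 in the knockout and 57.1 in the control, and borealin, Cdca8, was 33.5 in the knockout and 28.1 in the control. Across the complex the log2 fold spanned 0.34, less than the 0.87 spanned by Cdk1 with the B cyclins.

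Kinetochore and spindle checkpoint genes had 0 of 9 called and a median of -0.05. Bub3, which brings Bub1 and BubR1 to kinetochores, was 47.9 in the knockout and 35.0 in the control, 1.36-fold higher; the annotation of Fgfr2 runs over it on the opposite strand, at 5.58 in the knockout and 4.64 in the control. The checkpoint kinase Bub1 was 6.39 in the knockout and 4.57 in the control, 1.33-fold higher. Bub1b, for BubR1, was 12.0 in the knockout and 13.7 in the control. Mad2l1, the Mad2 protein that sequesters Cdc20, was 17.5 in the knockout and 14.9 in the control. Checkpoint genes thus lay on both sides of equality. The structural genes were flatter. Ndc80 and Nuf2, the microtubule-binding dimer of the outer kinetochore, were 4.84 and 6.61 in the knockout and 5.53 and 6.86 in the control. Cenpa, the centromeric histone, was 35.8 in the knockout and 37.0 in the control, and Cenpe and Cenpf were 6.79 and 4.20 in the knockout and 6.59 and 4.40 in the control.

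The common proliferation markers Mki67 and Top2a were almost level. Mki67, for the Ki-67 protein that coats mitotic chromosomes, was 24.8 in the knockout and 27.9 in the control, 1.12-fold lower. Top2a, the topoisomerase that untangles sister DNA, was 55.0 in the knockout and 53.7 in the control. The condensin core genes lay on either side of equality, Smc2 at 12.7 in the knockout and 9.99 in the control and Smc4 at 19.0 in the knockout and 21.2 in the control. Cdc20, which activates the anaphase-promoting complex, was 47.2 in the knockout and 50.1 in the control. It overlaps Elovl1 on the opposite strand over 53 bases, at 112 in the knockout and 108 in the control. Ube2c, the ubiquitin-conjugating enzyme of the anaphase-promoting complex, was 113 in the knockout and 127 in the control.

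Promoters of these genes share motifs that the choice of the genes did not use. In cultured mammalian cells, genes of late cell cycle phases are held down by the MuvB complex, which binds a cell cycle homology region (CHR), and are activated through CCAAT boxes bound by NF-Y. RefSeq windows of 300 bases (250 before and 50 after the start, GRCm38.p6) were found for 37 of the 44 genes, taking the first listed window of each. A CHR, searched as TTTGAA or TTTAAA on both strands, was in 30 of 37 windows (81.1%), against 27.8% of the windows of 27025 genes. At least 2 CCAAT boxes (CCAAT on either strand; matches can share end bases with a CHR or with each other) were in 18 of 37 (48.6%), against 12.2% of all windows. Both together were in 17 of 37 (45.9%), against 3.25% of all. Neither motif was in 5 of 37 windows (13.5%), those of Nusap1, Mad2l1, Nuf2, Knstrn and Cit, against 45.2% of all. The window of Nusap1 reaches into Oip5. The 30 genes with a CHR had a median log2 fold of -0.05, and so did the 7 without.

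Stretches of 120 bases before the start, free of annotated exons, are shown for the cyclin whose level was lower, for the anaphase activator, and for 2 ring genes that lay on opposite sides of equality. Capitals mark CHR and CCAAT matches on either strand; a match that lies outside the stretch is not shown. All are on the minus strand, written 5′ to 3′ along the gene: Ccnb2 at chr9:70421555-70421674, Cdc20 at chr4:118437353-118437472, Ect2 at chr3:27153879-27153998 and Racgap1 at chr15:99651657-99651776.
Ccnb2: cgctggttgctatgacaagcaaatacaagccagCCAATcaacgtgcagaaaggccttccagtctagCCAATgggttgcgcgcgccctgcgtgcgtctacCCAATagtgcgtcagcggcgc
Cdc20: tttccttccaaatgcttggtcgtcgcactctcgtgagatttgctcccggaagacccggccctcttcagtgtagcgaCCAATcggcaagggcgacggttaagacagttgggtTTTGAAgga
Ect2: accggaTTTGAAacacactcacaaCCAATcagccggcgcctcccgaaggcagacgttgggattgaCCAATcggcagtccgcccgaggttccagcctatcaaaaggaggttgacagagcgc
Racgap1: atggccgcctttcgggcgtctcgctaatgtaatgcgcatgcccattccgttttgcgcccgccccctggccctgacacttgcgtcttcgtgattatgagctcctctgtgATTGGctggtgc

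Genes that work beside the 44 were read from lists of the same pathways, and their counts stand beside the 30.7% called over all genes. These lists, like the 44, were chosen with earlier results of these data known. Of 20 actomyosin genes of the ring, 2 were called higher and 1 lower (Myh9), with a median log2 fold of 0.11. Actn1, an actin crosslinker, was 66.8 in the knockout and 43.1 in the control, and Rock2, the RhoA effector kinase that activates myosin II, was 18.8 in the knockout and 12.7 in the control. Myh14, for the heavy chain of myosin IIC, was 193 in the knockout and 194 in the control, and Myh10 was not analysed here. Rhoa, named after its value was seen, was 156 in the knockout and 171 in the control. Septins, which also line the ring, could not be read because 18 row names had been turned into dates. Of 17 abscission and ESCRT-III genes, 0 were called, and of 17 condensin and cohesin genes, 0 were called.

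Of 38 other kinetochore and centromere genes, 7 were called higher and 5 lower, with a median of 0.03. Trip13, which disassembles the checkpoint complex, was 7.27 in the knockout and 3.44 in the control, and Zwilch, of the RZZ complex, was 12.6 in the knockout and 6.76 in the control. Spc24, which anchors the Ndc80 and Nuf2 dimer to the kinetochore, was 12.0 in the knockout and 23.6 in the control. Its own partner Spc25, named after its value was seen, was 7.89 in the knockout and 7.58 in the control. Hjurp, the chaperone of Cenpa, was 22.4 in the knockout and 33.8 in the control.

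Of 36 other spindle genes, 6 were called higher and 1 lower, with a median of 0.05. Psrc1, a microtubule-binding protein, was 7.72 in the knockout and 2.81 in the control, 2.29-fold higher. Gtse1, a microtubule-binding protein that also restrains p53, was 10.9 in the knockout and 4.96 in the control. Stmn1, a microtubule destabiliser, was 51.5 in the knockout and 90.1 in the control, 1.74-fold lower. The anaphase-promoting complex list had 1 of 19 called higher (Cdc27) and 2 lower (Anapc13 and Anapc5).

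The lists upstream of mitosis were mixed. Of 16 other regulators of mitotic entry, 1 was called higher and 2 lower. Cks1b, a Cdk-binding subunit, was 31.5 in the knockout and 18.3 in the control, and Wee1, the kinase that inhibits Cdk1, was 3.17 in the knockout and 6.00 in the control; Wee1 was named after its value was seen. Of 15 genes of the MuvB, B-Myb and FoxM1 regulators of CHR promoters, 3 were called higher and 2 lower. Mybl2, for B-Myb, was 13.8 in the knockout and 6.19 in the control, 2.06-fold higher, and Lin37, a MuvB subunit, was 22.2 in the knockout and 40.6 in the control, 1.79-fold lower. Foxm1, chosen after its value was seen, was 8.96 in the knockout and 9.63 in the control.

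The lists with the highest medians were that of replication and the joint list of G2 arrest and p53 cell cycle genes. Of 24 replication genes, 7 were called higher and 2 lower, with a median log2 fold of 0.31. Gins2, of the replicative helicase, was 20.3 in the knockout and 10.1 in the control, whereas Pold1, of polymerase delta, was 13.8 in the knockout and 24.8 in the control. Of 17 G1 to S cyclins and inhibitors, 2 were called higher and 3 lower, with a median of -0.04. Ccne1, for cyclin E1, was 11.2 in the knockout and 4.44 in the control, 2.25-fold higher. Cdkn1b, for the inhibitor p27, was 5.39 in the knockout and 11.0 in the control. In the list of G2 arrest and p53 cell cycle genes, 8 of 15 were called higher and 0 lower, with a median of 0.59. Ccng1, a p53-induced cyclin, was 49.9 in the knockout and 19.8 in the control, 2.45-fold higher. Sfn, for 14-3-3 sigma, which in human cells holds cyclin B with Cdk1 in the cytoplasm, was 90.0 in the knockout and 50.5 in the control. Cdkn1a, for the inhibitor p21, was 114 in the knockout and 69.1 in the control; it was named after its value was seen, as were Gadd45a and Btg2. These last genes were not called, at 20.9 and 13.2 in the knockout and 20.6 and 12.1 in the control. Over all genes 15.0% were called higher. Under the 3 rescalings of the libraries, 8 or 9 of the 15 were called higher and 0 lower. All 3 multiplied knockout levels by a factor above 1 (1.003, 1.06 and 1.08). Fewer higher calls or more lower calls were therefore not possible.

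**Figure D4:**
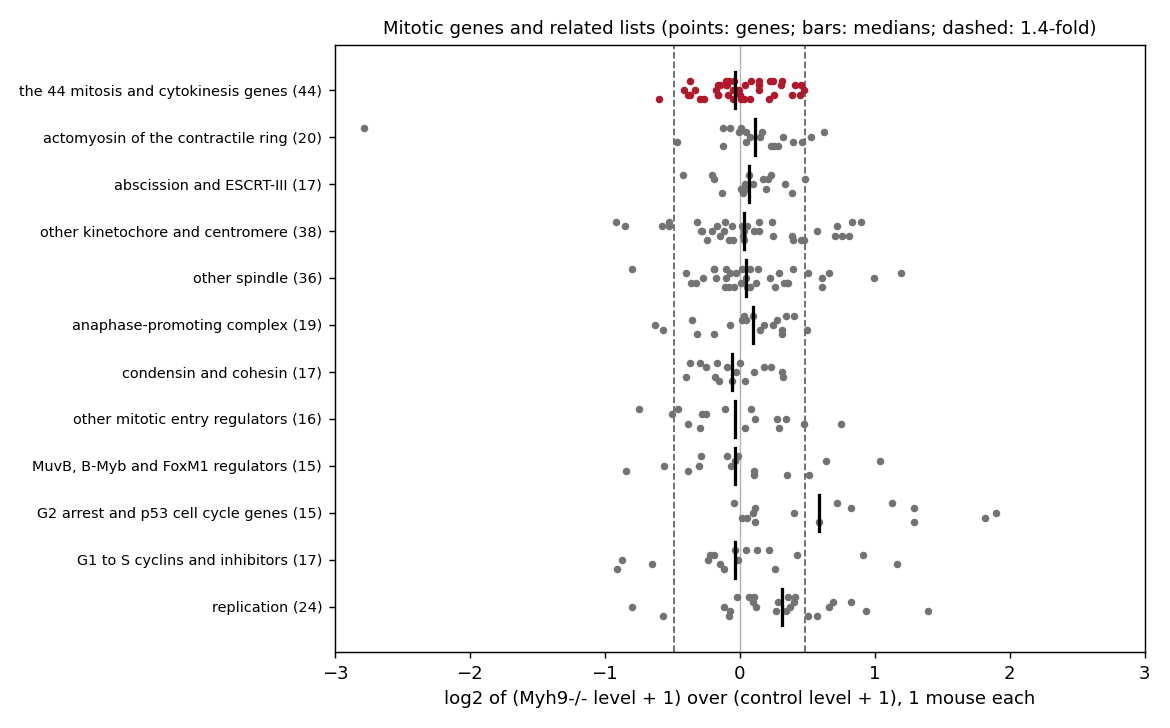
Log2 fold of each gene (points) and median (black bars) for the 44 genes (red) and for 11 related lists (grey; number of genes in brackets), Myh9-/- over control; dashed lines mark 1.4-fold. The medians of most lists lie close to 0, those of replication (0.31) and of G2 arrest and p53 genes (0.59) lie to the right, and the isolated point at -2.78 is Myh9.

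Some small differences changed sign with the scaling of the libraries. When totals were equalised with genes of the mitochondrial genome and the 20 most abundant ones left out, knockout levels were multiplied by 1.08. The median log2 fold of all genes became 0.09, and 61.6% of the called genes were higher ones, against 49.0% on the deposited scale. On that scale Nusap1 stayed lower at 1.42-fold, and Prc1, Ccnb1, Bub3 and Bub1 were called higher at 1.42-fold to 1.50-fold. The 44 genes then had 29 above the control and 15 below it. The spindle median was -0.001 and the ring and central spindle median 0.18. One factor for all knockout levels moves every fold upward by a similar amount. The order of these roles could therefore hardly change, and its being kept says nothing about the difference between them.

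Markers of the cells that could carry these transcripts differed between the mice, and their part in the levels above was not tested. Of 7 epithelial markers, 2 were called higher and 0 lower, with a summed level of 6846 in the knockout and 6792 in the control. The called ones were Krt18, at 488 in the knockout and 250 in the control, and Krt20, at 615 in the knockout and 435 in the control. Epcam was 633 in the knockout and 680 in the control. Of 7 crypt stem cell markers, 5 were called lower and 0 higher, and their summed level was 178 in the knockout and 734 in the control. Most of that sum was Olfm4, at 113 in the knockout and 619 in the control. Of 9 T and intraepithelial lymphocyte markers, 8 were called lower (7 under each of 3 rescalings), with a summed level of 459 in the knockout and 995 in the control. Of 5 Paneth cell markers, 4 were called lower, with a summed level of 7744 in the knockout and 13687 in the control. Of 8 absorptive enterocyte markers, 1 was called higher and 2 lower; 4 lay above the control and 4 below it, and the median log2 fold was 0.01. Their summed level was 17357 in the knockout and 14130 in the control, and Fabp1 alone was 6049 in the knockout and 3018 in the control. Of 4 B and plasma cell markers, 3 were called higher (Jchain, Igha and Igkc), with a summed level of 750 in the knockout and 229 in the control. Macrophage, mesenchymal and red blood cell markers summed to 16.8, 15.8 and 16.0 in the knockout and to 8.42, 10.2 and 6.47 in the control. Called higher were 2 of 4, 2 of 4 and 2 of 2 of them. Itgax, in the macrophage list, was called lower, at 1.34 in the knockout and 2.47 in the control. Col1a1 and Col1a2, in the mesenchymal list, were not called. No listed marker with a row was at 0 in either mouse. In bulk RNA, fewer cells of a type and less RNA per cell cannot be told apart.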

How the data were processed

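Bulk RNA sequencing of 2 samples was analysed, 1 Myh9-/- and 1 control, grouped by genotype label; table columns were matched by the animal number in the titles. Per the submitters' processing notes, HISAT2, StringTie and the build mm10 were involved; no version is given there. The deposited values are a signal per gene whose unit no source used here names; from the values, the authors had added 1, which was removed. The deposited fold, a ratio by the authors, equalled knockout over control value to within a relative difference of 1.22e-07 and was not used further. Depth is unknown, so no counting interval is given.

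Log2 folds used a pseudocount of 1, genes a mean level of at least 1 (11631 of 12631 rows) and calls 1.4-fold; without replicates no test was run. The 8 names on 2 rows each entered the counts over all genes but no list. The calculation was run on simulated levels with known folds and no noise, which checks the arithmetic and not the reliability of calls. Positions and overlaps came from GENCODE M21, promoter windows from RefSeq (GRCm38.p6). All 44 genes are named by list; of each pathway list, genes past 1.4-fold with a mean level of at least 5, at most 4 per direction, could be named, with Myh9, Myh10 and Myh14 always; genes that overlap a member are given for that overlap, and others are marked. The members and lists were chosen with earlier results of these data known. Alternatives were other pseudocounts, filters, thresholds, scalings and role assignments. Python 3.11.15, numpy 2.4.6, pandas 2.3.3 and matplotlib 3.10.9 were used.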

Additional observations from a re-analysis of the deposited data

How the results depend on the processing

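Of 46 alternative values of 5 summaries (members called higher, members called lower, and the medians of all members, of the spindle and of the ring with the central spindle), 38 stayed within 1.5 times the count or within 0.1 of the log2 median. The number of members called higher, 0 as reported, was 1 with a pseudocount of 0.1 or none (Prc1), 3 after scaling to equal totals (Prc1, Ccnb1 and Bub3), 4 after scaling that left out genes of the mitochondrial genome and the 20 most abundant ones (Prc1, Ccnb1, Bub3 and Bub1), and 7 at a 1.2-fold threshold. The number called lower, 1 as reported, was 0 at a 2-fold threshold and 8 at 1.2-fold. The ring and central spindle median, 0.08 as reported, was 0.18 after the same scaling. With 1 sample per group no sample could be left out, and no paired analysis was possible because the groups share no 2 replicate numbers. Depth and replicate error are unknown, so differences of the size seen in the 44 genes cannot be told from the variation between mice or libraries.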
